A study of Mus musculus with 15 samples.

Results

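H3K27me3 was compared with nucleosome density in 93493 of the 98085 deposited bins of 2 kb. The depositors call these bins random, and they sample genes and gene families only in part. The bins compared were those above 0 in at least 1 of 4 libraries, and the other 4592 bins were listed at 0 in all 4. The libraries were 2 of H3K27me3, from 100,000 and 10,000 cells, and 2 of panH3, called a and b, from 1,000 cells each. All came from TT2, a male mouse embryonic stem cell line of C57BL/6 x CBA background with a wildtype genotype, derived from the blastocyst inner cell mass, and the labels name no treatment. They belong to a series of 15 libraries on native chromatin immunoprecipitation (ChIP without crosslinking) from low cell numbers. TT2 is 1 line, and the labels do not name separate cultures, so the p-values here cover the spread among these libraries and no more, which may be technical. Another H3K27me3 library, from 1,000 cells, was left out of the test and is given beside it as a readout that the test did not use. Since neither tested H3K27me3 library shares the cell number of panH3, mark and cell number cannot be told apart in the test.

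H3K27me3 is the trimethylation of histone H3 at lysine 27. It is written by Polycomb repressive complex 2, in which Ezh2 or Ezh1 is the enzyme and Eed and Suz12 are core partners. In embryonic stem cells it is best known from the CpG-rich promoters of silent developmental regulators, where it often stands together with H3K4me3, the promoter mark of active genes. The panH3 antibody binds histone H3 in any form and recovers nucleosomes whatever their modification, so panH3 reads follow nucleosome density and how well a bin can be mapped.

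The sequences upstream of 6 genes whose bins are described below show how CpG content and the calls lay together. They are the 250 bases upstream of the annotated start in RefSeq (build GRCm38.p6, while the bins are in mm9, so genes were matched by symbol), read 5′ to 3′ on the gene's strand, with every CpG dinucleotide in capitals. Hmx1 (chr5:35388611-35388860, plus strand), Gsx2 (chr5:75075351-75075600, plus) and Neurod1 (chr2:79456637-79456886, minus) encode transcription factors of neural development, and Wnt9a (chr11:59306680-59306929, plus) encodes a secreted signal. In the bins at these 4 starts H3K27me3 stood far above panH3. Eef1b2 (chr1:63176581-63176830, plus), a translation elongation factor, is shown as an expressed gene whose start was low in H3K27me3. Kcnk16 (chr14:20269270-20269519, minus), a potassium channel, is shown as a silent gene without CpG whose start was not called.
Hmx1: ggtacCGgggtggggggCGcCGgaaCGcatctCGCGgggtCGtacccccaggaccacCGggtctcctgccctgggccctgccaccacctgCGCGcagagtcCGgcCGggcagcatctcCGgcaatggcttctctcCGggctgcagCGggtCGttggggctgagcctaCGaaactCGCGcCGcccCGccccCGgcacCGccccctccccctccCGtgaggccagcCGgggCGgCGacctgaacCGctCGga
Gsx2: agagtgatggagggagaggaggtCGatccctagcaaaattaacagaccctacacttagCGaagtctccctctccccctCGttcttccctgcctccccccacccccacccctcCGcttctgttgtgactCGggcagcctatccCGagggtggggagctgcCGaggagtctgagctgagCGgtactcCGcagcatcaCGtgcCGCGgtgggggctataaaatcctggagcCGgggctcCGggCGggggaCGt
Neurod1: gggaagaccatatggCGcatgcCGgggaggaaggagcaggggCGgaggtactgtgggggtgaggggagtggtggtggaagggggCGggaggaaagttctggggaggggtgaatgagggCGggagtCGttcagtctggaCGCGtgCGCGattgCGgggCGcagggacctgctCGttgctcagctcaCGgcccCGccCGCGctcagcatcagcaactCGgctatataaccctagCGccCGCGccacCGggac
Wnt9a: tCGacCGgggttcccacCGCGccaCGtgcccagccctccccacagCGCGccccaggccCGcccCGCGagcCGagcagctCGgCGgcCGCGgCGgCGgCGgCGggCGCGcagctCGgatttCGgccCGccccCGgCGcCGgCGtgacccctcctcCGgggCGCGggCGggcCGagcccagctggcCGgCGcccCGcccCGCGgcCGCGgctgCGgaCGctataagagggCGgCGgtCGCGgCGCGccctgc
Eef1b2: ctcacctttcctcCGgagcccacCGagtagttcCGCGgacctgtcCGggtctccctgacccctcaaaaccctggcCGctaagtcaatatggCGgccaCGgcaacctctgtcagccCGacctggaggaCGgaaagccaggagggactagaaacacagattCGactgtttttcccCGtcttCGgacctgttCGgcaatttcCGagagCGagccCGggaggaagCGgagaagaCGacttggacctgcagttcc
Kcnk16: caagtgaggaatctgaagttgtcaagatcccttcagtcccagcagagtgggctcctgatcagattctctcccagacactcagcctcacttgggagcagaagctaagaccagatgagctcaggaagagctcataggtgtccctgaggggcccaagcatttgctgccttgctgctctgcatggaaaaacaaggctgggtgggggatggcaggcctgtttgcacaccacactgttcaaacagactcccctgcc
The Hmx1 stretch holds 29 CpG, and 6.78% of the 32851 RefSeq promoters in the table hold at least as many in their upstream 250 bases. The counts were 16 for Gsx2 (25.4% of promoters hold as many or more), 22 for Neurod1 (14.8%), 48 for Wnt9a (0.186%) and 19 for Eef1b2 (19.7%). Kcnk16 holds 0. The count alone did not separate the calls, as the Eef1b2 stretch holds more CpG than that of Gsx2. Of the 3082 tested start-site bins 76.3% had a promoter in the table, under the 80% set for such a check, so a comparison of CpG content over all start-site bins is void and none is given.

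The deposited values are RPKM, reads per kb of bin scaled to mapped reads. From the steps between low values the H3K27me3 libraries held 19.66 and 15.3 M (mega) reads (12.99 M at 1,000 cells) and panH3 a and b 42.02 and 42.15 M, so that the median bin held 14.2, 11, 9.9, 35.3 and 35.3 reads. The 2 panH3 libraries differed by little more than counting noise (chi-square of 1.02 per degree of freedom over bins, where noise alone gives 1), against 1.11 for the tested H3K27me3 pair. In RNA from 1,000 cells, 10 of 10 stem cell markers reached 1 RPKM, from 15.0 for Klf4 to 222 for Zfp42. Of 10 fibroblast markers 3 did (Fn1 38.5, Vim 13.5 and Thy1 1.79 RPKM, with Col3a1, Postn and Dcn at 0), and 0 of 5 endoderm and 2 of 5 neural markers. The part of other cells in the results was not tested. No bin exceeds 5 RPKM in any library, so bins of the very highest signal are not among those compared.

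The 11 libraries of the bin table fell into 2 sets in a small number of bins. In 48 bins on 12 chromosomes, 15 of them on chromosome 17, all 3 H3K27me3 libraries and 3 H3K9me3 libraries (100,000, 10,000 and 1,000 cells a) were listed at 0. The other 3 H3K9me3 libraries (1,000,000 and 1,000 cells b and c) and both panH3 libraries were above 0.1 RPKM there, and 0 bins showed the reverse. All 48 were called lower, but because the sets put all H3K27me3 on 1 side and all panH3 on the other, set and mark cannot be told apart in them, and no comparison within a set was possible. H3K9me3 holds libraries of both sets. Over all tested bins its first set lay a median of 0.02 log2 units below its second, and in the bins at least 1 log2 unit lower in H3K27me3 it lay 0.08 below, against a median of -1.42 for H3K27me3 minus panH3 in the same bins. In 234 bins the first H3K9me3 set was at least 1 log2 unit below the second without overlap, and 149 of these were called lower in H3K27me3. Another 41 bins split the other way. Without these bins the shares by place changed little: 35.8% of start-site bins of silent genes were called higher and 54.9% of other bins in expressed genes lower.

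Differences are given as log2(H3K27me3 + 0.1 RPKM) minus log2(panH3 + 0.1 RPKM), which understates the change of low bins, with limma's moderated test and Benjamini-Hochberg adjustment over all 93493 bins. At an adjusted p under 0.05, 10098 bins (10.8%) were called higher in H3K27me3 than in panH3 and 18684 (20.0%) lower, and the median difference was -0.12. By at least 1 log2 unit, 3798 bins (4.06%) were higher and 13204 (14.1%) lower. When every library was centred on its median, the median difference shifted by 0.20 to 0.08 and the calls to 16484 higher (17.6%) and 13848 lower (14.8%), so that the share of higher among all calls was 35.1% as deposited and 54.3% centred. The calls lean on the spread between the panH3 libraries: without panH3 a 1003 bins were higher and 8 lower, and without panH3 b 981 and 8. Without the 100,000-cell H3K27me3 library they numbered 15308 and 26240, and without that of 10,000 cells 13709 and 24748. With the panH3 pair averaged into 1 library, a choice made after seeing the data, 773 bins were higher and 4 lower. The 1,000-cell H3K27me3 library, which has no replicate, had a median difference of -0.06 from panH3, and its calls, which would rest on the spread of the deeper panH3 pair, are not used. With 2 libraries against 2, an exact permutation test of a single bin cannot go below p = 0.333.

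At the start sites of genes with little or no RNA, mean H3K27me3 stood above nucleosome density, and it was highest where a trace of RNA was present. A start-site bin is one that touches the 1 kb on either side of an annotated start, and a gene is called silent here below 1 RPKM of RNA and expressed from 1 RPKM. In the 1480 tested start-site bins of silent genes the mean H3K27me3 level was 0.821 and 0.881 RPKM at 100,000 and 10,000 cells, 0.613 at 1,000 cells, and 0.4285 and 0.427 in panH3 a and b. Of these bins 529 (35.7%) were higher and 133 (8.99%) lower, and the median log2 difference was 0.33. Among all 3082 start-site bins 25.6% were higher and 30.4% lower. The share of higher bins was smaller for genes listed at 0 RNA than for those above 0 but under 1 RPKM, a difference that was not tested. In the 607 bins of the former 21.9% were higher, under the share of all start-site bins, and 8.24% lower (median 0.10, mean level 0.621 against 0.418 RPKM in panH3). In the 873 bins of the latter 45.4% were higher (median 0.51, 1.01 against 0.435 RPKM).

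Start-site bins of expressed genes were more often below panH3 than above it. Of 1602 such bins 803 (50.1%) were lower and 261 (16.3%) higher, with a median of -0.79. Their mean H3K27me3 level, 0.425 ± 0.0156 RPKM (SD, n = 2), was nonetheless close to the 0.450 of panH3. Where RNA reached 10 RPKM, 408 of 602 bins (67.8%) were lower and 44 higher, and the H3K27me3 levels of 0.271 and 0.269 RPKM lay below 0.471 and 0.472 in panH3. The 1,000-cell H3K27me3 library had 0.288 RPKM in these bins, also below both panH3 libraries. Between 1 and 10 RPKM of RNA 395 of 1000 bins (39.5%) were lower and 217 (21.7%) higher, with a median of -0.47. The mean levels ran the other way in the tested pair, with 0.50 and 0.537 RPKM, above the 0.435 and 0.439 of panH3, and 0.406 in the 1,000-cell library, below them.

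The bodies of expressed genes held 11171 of the 18684 lower bins. Away from start sites, 11171 of 20329 bins in expressed genes (55.0%) were lower and 736 (3.62%) higher, with a median of -0.88 and mean levels of 0.282 ± 0.00377 RPKM for H3K27me3 and 0.492 ± 0.000435 for panH3 (SD, n = 2 each). From 10 RPKM of RNA, 72.9% of 8496 bins were lower (median -1.24, 0.218 against 0.528 RPKM). These bins were also the richest in panH3 among the places compared. In silent genes 1962 of 12959 bins (15.1%) were higher and 997 (7.69%) lower. Their median of 0.06 became 0.27 after centring, and their mean level was 0.522 RPKM against 0.4375 in panH3.

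**Figure D1:**
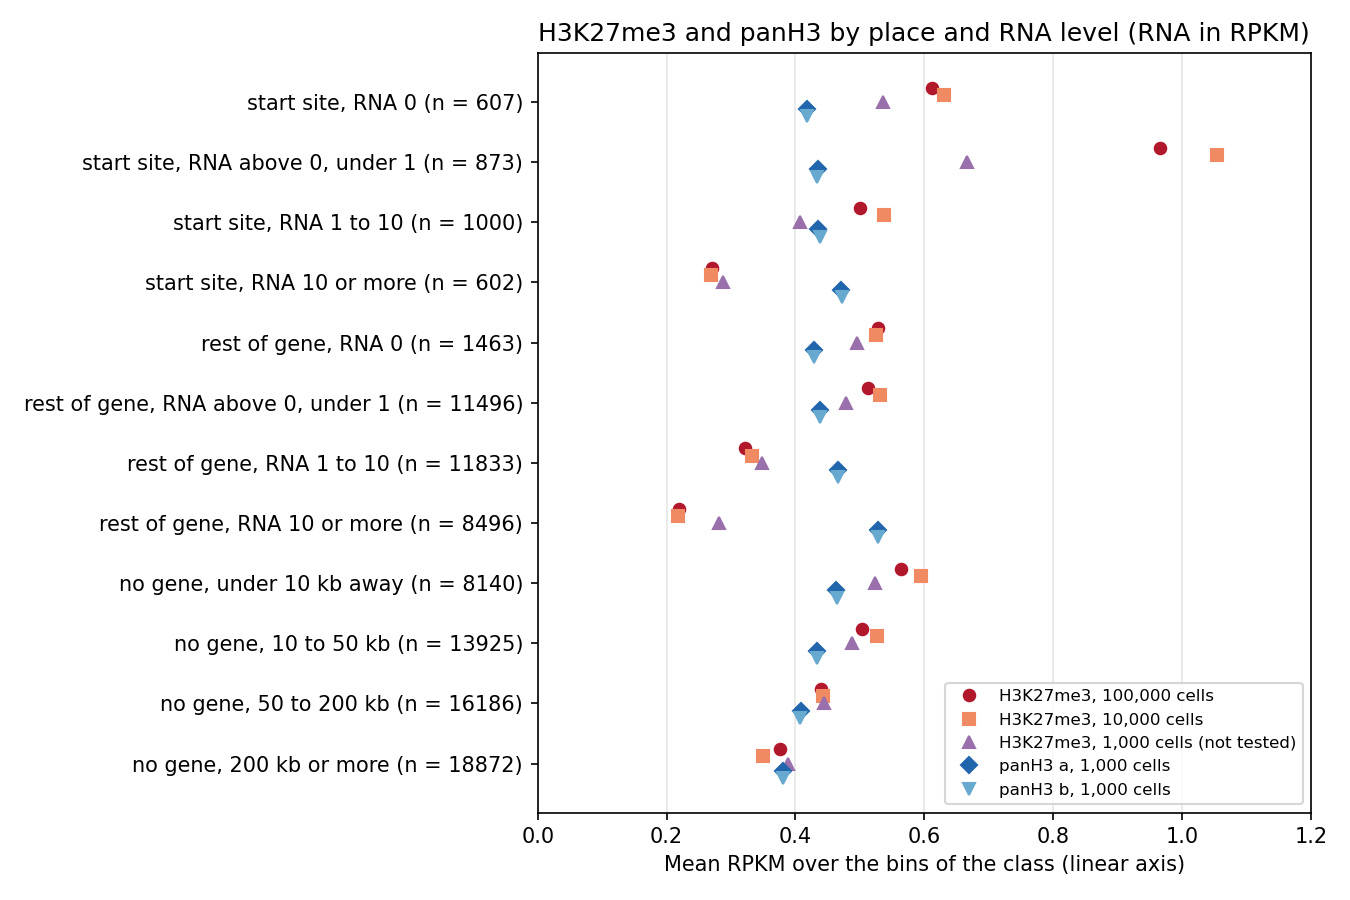
Mean RPKM (x axis, linear) over the tested bins of each place and RNA class (y axis, with the number of bins) for 5 libraries, 1 point each. The tested H3K27me3 points lie to the right of panH3 at silent start sites (0.967 and 1.06 RPKM where RNA is above 0 but under 1) and to the left in expressed gene bodies (0.219 and 0.218 where RNA is 10 RPKM or more), and in these 2 classes the 1,000-cell points lie between the tested pair and panH3.

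Between genes, the share of bins called higher was largest near genes. Of bins touching no gene, 22.3% of 8140 under 10 kb from a gene were higher, 16.9% of 13925 at 10 to 50 kb, 10.1% of 16186 at 50 to 200 kb and 4.27% of 18872 at 200 kb or more. The shares called lower were 16.5%, 9.37%, 7.56% and 9.03% in the same order, so that in the farthest class 1705 bins were lower and 806 higher. The median differences were 0.06, 0.08, -0.01 and -0.13. The mean H3K27me3 level over these classes was 0.579, 0.515, 0.441 and 0.363 RPKM, and that of panH3 0.463, 0.433, 0.408 and 0.381. After centring the medians of the 2 farther classes turned to 0.20 and 0.08, so their direction depends on that choice. Under 10 kb the shares differed by side. Upstream of the nearest gene 1189 of 4083 bins (29.1%) were higher and 525 (12.9%) lower, and downstream 627 of 4057 (15.5%) were higher and 821 (20.2%) lower (median -0.07, or 0.14 after centring).

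By distance to the nearest start site, silent and expressed genes had different courses, a difference that was not tested. For bins nearest to the start of a silent gene, the ratio of mean H3K27me3 to mean panH3 was 2.13 where the start lay in the bin, 1.31 at 5 to 10 kb, 1.11 at 20 to 50 kb and 0.911 beyond 500 kb. For bins nearest to an expressed start the ratio was 0.944 at the start, lowest at 10 to 20 kb (0.722) and 0.993 at 200 to 500 kb. The 1,000-cell library had a ratio of 1.45 at silent starts, below that of the tested pair, and of 0.777 at expressed starts and 0.744 at 10 to 20 kb from them.

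**Figure D2:**
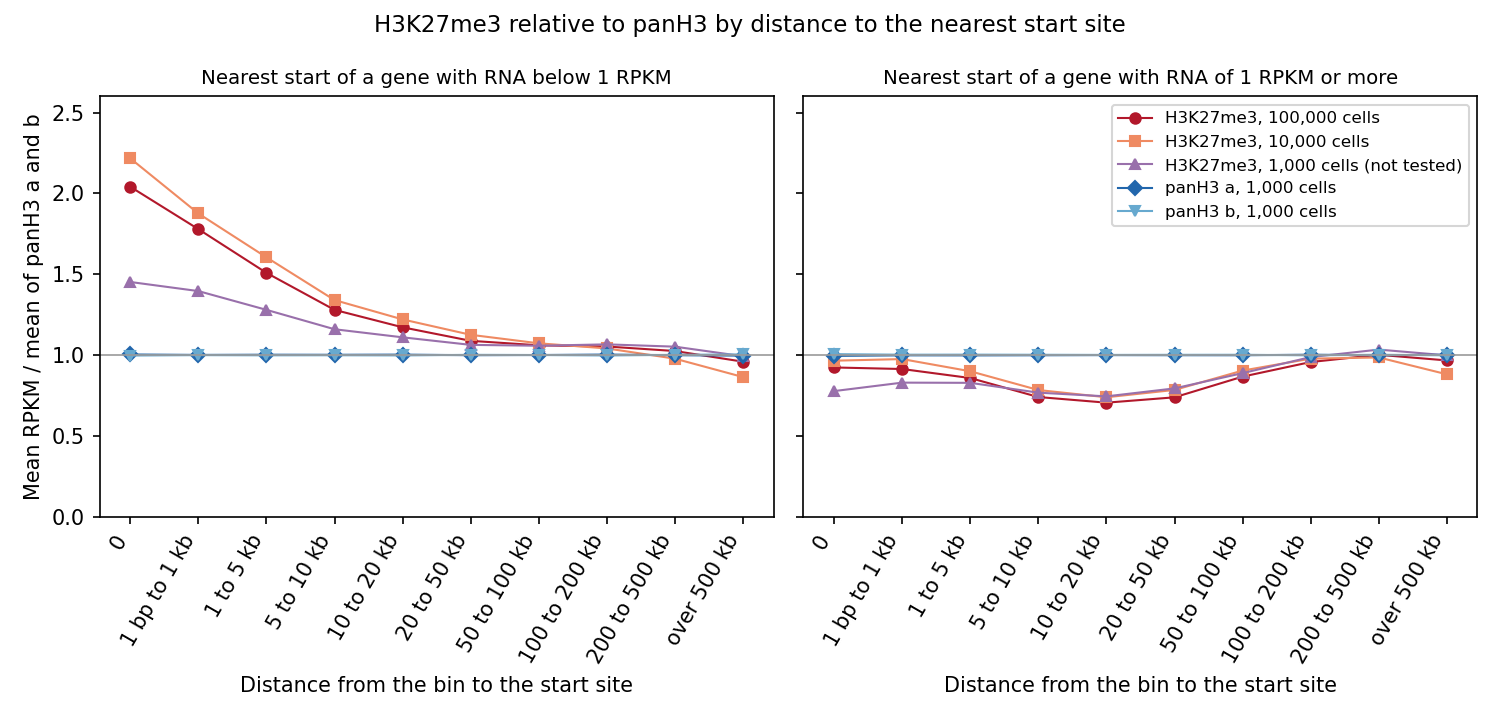
Mean RPKM divided by the mean of panH3 a and b (y axis, linear) by the distance from a bin to the nearest start site (x axis, 10 classes), for silent genes (left) and expressed genes (right), 1 line per library. The H3K27me3 lines start above 1 on the left (2.13 for the mean of the tested pair) and dip below 1 on the right (0.722 at 10 to 20 kb).

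Of the 12 highest bins, 6 touched genes for developmental transcription factors, a grouping made after the values were seen. The 12 bins with the largest positive difference spanned 3.41 to 3.85 log2 units, and in all 12 every H3K27me3 library, that of 1,000 cells included, exceeded both panH3 libraries. The first was in Lbx1 (chr19:45308001-45310000), a homeobox gene of muscle precursors and dorsal spinal cord. It had 4.09, 4.57 and 1.69 RPKM of H3K27me3 at 100,000, 10,000 and 1,000 cells and 0.25 and 0.17 RPKM of panH3. Its difference was 3.85 ± 0.18 log2 units (SE, adjusted p = 8.56e-09). Six3, a homeobox gene of the forebrain and eye (chr17:86022001-86024000), had 4.30, 4.28 and 1.80 RPKM against 0.23 and 0.24. Pax1, a paired-box gene of the sclerotome (chr2:147190001-147192000), had 3.89, 3.99 and 1.76 against 0.30 and 0.20. RNA was listed at 0, 0.02 and 0.06 RPKM for these 3 genes.

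Hmx1 and Gsx2, whose promoters are printed above, were among the 12. Hmx1 (chr5:35730001-35732000) had 3.25, 3.66 and 2.03 RPKM of H3K27me3 and 0.20 and 0.19 of panH3. Gsx2 (chr5:75470001-75472000) had 3.71, 4.90 and 2.30 against 0.33 and 0.28, a difference of 3.43 ± 0.17. The groups did not overlap at either gene, and RNA was 0.34 and 0 RPKM. Alx4, a homeobox gene of the limb and skull, stood at 3.41, and a bin that touches no gene, 0.805 kb from the forkhead gene Foxb2, at 3.43. Others of the 12 were at Siglec15, a receptor of the osteoclast lineage (3.60), Fam155a (3.50) and Elfn1, a synaptic adhesion protein (3.48).

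Beside the Foxb2 bin, 2 of the 12 touched no gene. One lay 35.8 kb upstream of Rhou, a small GTPase (chr8:126140001-126142000), with 4.32, 3.73 and 2.38 RPKM of H3K27me3 against 0.18 and 0.25 of panH3. The other lay 12.2 kb downstream of Cdkn1c (chr7:150630001-150632000), the imprinted inhibitor of cyclin-dependent kinases, with 3.91, 4.41 and 2.11 against 0.24 and 0.30. Farther out, the highest bins at least 50 kb from any gene of the RNA table were 57.9 kb from Kalrn (3.02) and 71.4 kb from Fabp5 (2.81). Both have a window in the separate deposited list of start sites, with 6.2 and 0 RPKM of H3K4me3 at 100,000 cells. They are thus distant only from the genes of the RNA table. The highest over 200 kb away was nearest to Gm5607 (252 kb, 1.27, 1.44 and 0.54 RPKM against 0.13 and 0.21, difference 2.44 ± 0.23). These distant bins were chosen after their values were seen.

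**Figure D3:**
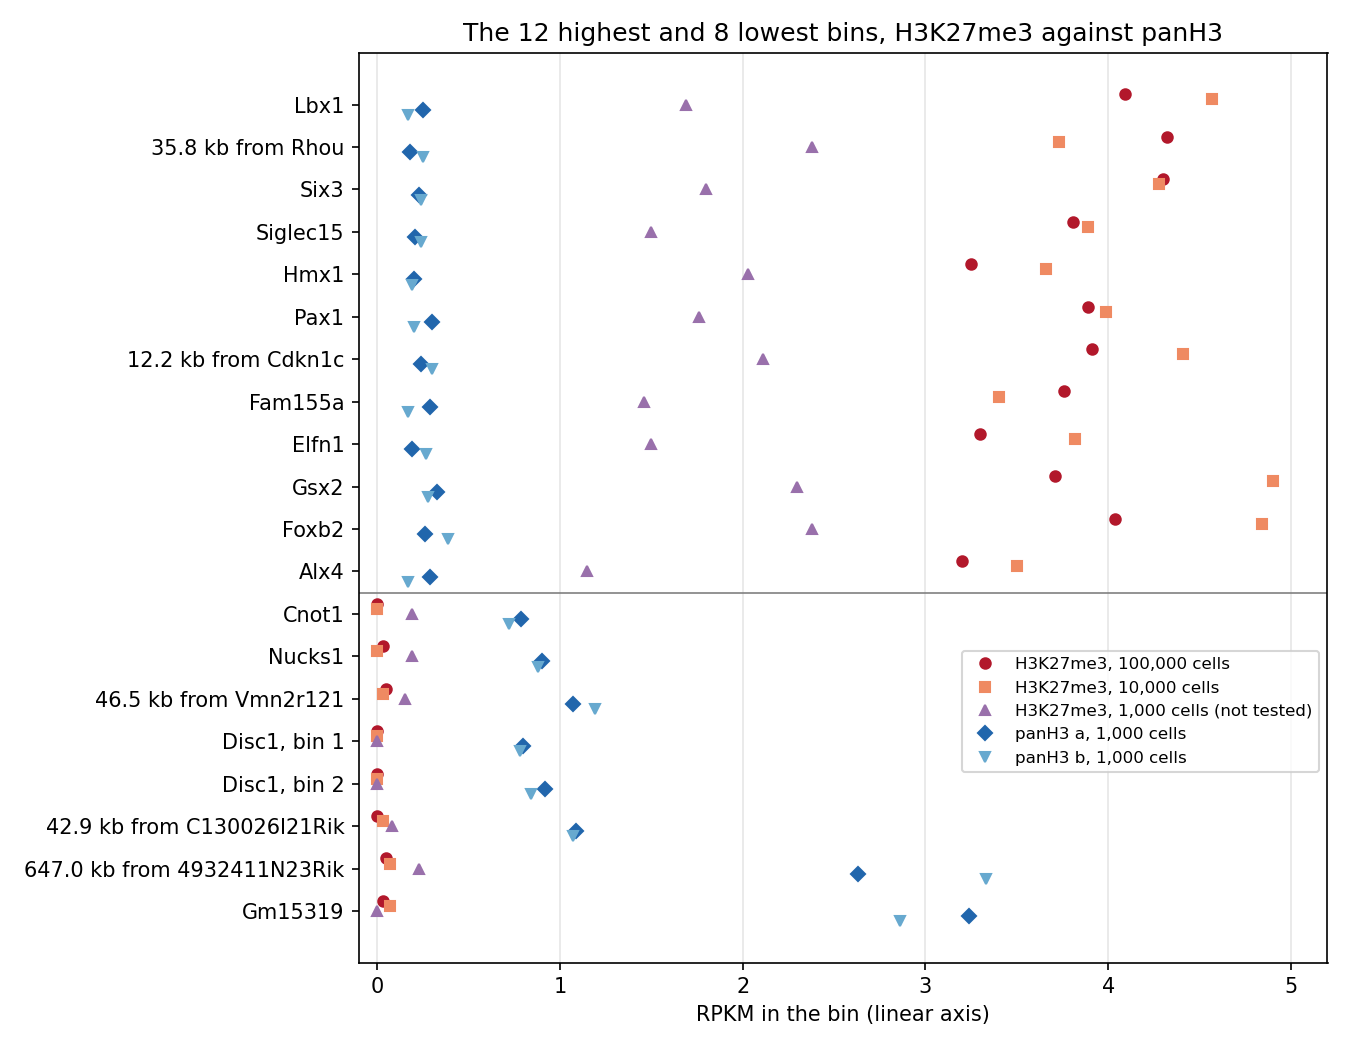
RPKM (x axis, linear) in the 12 bins with the largest positive and the 8 with the largest negative difference (y axis, named by the gene touched or nearest), 1 point per library. In the upper 12 the tested H3K27me3 points lie between 3.20 and 4.90 RPKM and panH3 between 0.17 and 0.39, and in the lower 8 panH3 lies between 0.72 and 3.33 RPKM and the tested H3K27me3 points at or below 0.07.

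Among gene families, the Hox genes, which set position along the body axis, were higher in every tested bin. Only 6 of 39 Hox genes had a bin at the gene or its start. All 6 bins were called (median 2.95, against -0.12 over all tested bins), with a mean of 3.85 RPKM of H3K27me3 against 0.425 of panH3. Hoxc11 (chr15:102782001-102784000) had the highest levels in the tested pair, with 4.98, 4.93 and 2.42 RPKM against 0.48 and 0.45, while at 1,000 cells Hoxb13 was higher, at 2.53 RPKM. Hoxd8 (chr2:74542001-74544000) had the largest difference, 3.35 ± 0.20, from 2.44, 2.55 and 1.19 RPKM against 0.14 and 0.17. Levels and differences thus ranked these 2 bins differently, and panH3 itself was lower at Hoxd8. The 6 bins lie in all 4 clusters, in Hoxa3, Hoxb13, Hoxc13, Hoxd8 and Hoxd13 and, for the Hoxc11 bin, 0.961 kb upstream of the gene.

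For the lists that follow, the shares over all features were 25.6% higher and 30.4% lower among 3082 start-site bins, and 10.8% and 20.0% among all tested bins. The bins reached only part of each list, for instance 8 of 31 pluripotency genes and 13 of 85 genes for ribosomal proteins. Other homeobox genes had 16 higher and 2 lower of 20 start-site bins (median 2.41). Of all their 192 bins 49 (25.5%) were higher and 38 (19.8%) lower (median 0.04). The lowest start was that of Tgif1, a homeobox repressor in TGF-beta signalling with 29.0 RPKM of RNA. It had 0.10, 0.20 and 0.31 RPKM of H3K27me3 against 0.65 and 0.50 of panH3 (-1.45 ± 0.29, adjusted p = 0.00151). Pax genes, paired-box regulators of organ formation, had 10 higher and 0 lower of 17 bins (median 1.19). Within Pax2, a regulator of kidney and midbrain development, the 3 bins stood at 2.38, 1.60 and 1.52. In Pax5, a regulator of B cells, 1 of 4 bins was higher (1.76 ± 0.24).

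Forkhead and basic helix-loop-helix genes had more higher than lower bins at starts and more lower than higher bins in all. Forkhead genes had 4 higher of 5 start-site bins, and of all 78 bins 27 (34.6%) were lower and 8 (10.3%) higher, the latter near the share over all bins. Foxa2, an endoderm regulator (chr2:147870001-147872000), led with 2.85, 2.71 and 1.53 RPKM against 0.15 and 0.20 (3.39 ± 0.19). Basic helix-loop-helix genes had 8 higher and 0 lower of 13 start-site bins, against 14 higher and 23 lower of all 48. Neurod1 (chr2:79296001-79298000), its promoter printed above, had 2.44, 2.52 and 0.88 RPKM against 0.35 and 0.36 (2.5 ± 0.17). Mesp2, a regulator of somite borders, reached 2.30 and Neurog3, a regulator of pancreatic endocrine cells, 2.21.

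Sox and T-box genes held both higher and lower bins. All 3 Sox start-site bins were higher, Sox9, a regulator of cartilage and testis, with 4.45, 4.67 and 1.38 RPKM against 0.37 and 0.33 (3.37 ± 0.15). Of all 52 Sox bins, of which 28 lay in Sox6 and 17 in Sox5, 6 (11.5%) were higher, near the share over all bins, and 3 (5.77%) lower. After centring 0 were lower. Among 16 T-box bins 6 (37.5%) were higher and 3 lower, the latter near the share over all bins. The 3 lower bins all lay in Mga, a T-box protein of a Myc-related network with 19.2 RPKM of RNA, while Tbx4, a hindlimb regulator with 0.18 RPKM, had 3.36, 3.76 and 2.07 RPKM against 0.46 and 0.46 (2.71 ± 0.15). Of 4 Gata bins 1 was higher, in Gata4, an endoderm and heart regulator (1.04 ± 0.20).

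Genes for Wnt, Fgf, Bmp and Gdf ligands had 8 higher and 1 lower of 11 start-site bins (median 2.13), and 26 higher (23.2%) and 8 lower (7.14%) of all 112 bins (median 0.02). Fgf3, a fibroblast growth factor of inner ear and tail development (chr7:152024001-152026000), had 3.05, 3.56 and 2.07 RPKM against 0.26 and 0.24 (3.28 ± 0.18). Wnt9a (chr11:59120001-59122000), its promoter printed above, had 2.67, 2.58 and 1.23 against 0.30 and 0.24 (2.89 ± 0.18). The lower bin covers the starts of both Gdf9, an oocyte growth factor, and Uqcrq, a subunit of respiratory complex III, and the 2 genes cannot be separated in it (-1.74 ± 0.28, highest RNA of the pair 44.4 RPKM).

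The genes that encode the Polycomb machinery itself were mostly below nucleosome density. Of 48 bins in genes of its subunits 33 were lower and 8 higher (median -1.43). In Suz12 the 3 bins stood at -2.39, -2.33 and -1.74, in Ezh2 at -2.0, -2.07 and -1.25, and the 1 bin in Eed at -1.10. All 9 bins in Jarid2, a cofactor of the complex, were lower (-1.34 to -1.90). Among the genes with higher bins were Cbx2, Bcor, Pcgf5 and Phc2, which belong to forms of Polycomb repressive complex 1. Cbx2 reached 1.23, and 4 of 6 bins in Bcor, an X-linked corepressor, were higher (1.30 to 2.53), for instance 1.58, 1.57 and 0.96 RPKM against 0.14 and 0.25.

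The genes of the pluripotency list, which includes markers of the naive and of the next, primed state, were divided. Of 18 bins 9 were lower and 8 higher (median -0.41), and after centring 7 were lower and 8 higher. The balance of calls thus turned, as it did over all tested bins. Pou5f1, the core factor Oct4, had 0.15, 0.03 and 0.38 RPKM against 0.35 and 0.33 (-1.29 ± 0.33, adjusted p = 0.00839), so that its 1,000-cell value lay above both panH3 libraries, unlike the tested pair. Lin28a, an RNA-binding protein, had 0.03, 0 and 0.08 RPKM against 0.55 and 0.44 (-2.38 ± 0.30). Klf2, a factor of the naive state with 10.7 RPKM of RNA, was higher at 1.73, 2.19 and 1.15 RPKM against 0.57 and 0.53 (1.66 ± 0.18). Nr5a2, a nuclear receptor with 61.4 RPKM of RNA, held both kinds. Of its 6 bins 2 were higher, led by 2.47, 2.91 and 1.88 RPKM against 0.69 and 0.81 (1.71 ± 0.16), and 4 were lower (-0.79 to -1.79). In Esrrb, an orphan nuclear receptor, 3 of 4 bins were higher (0.60 to 0.68) and 1 lower (-0.78). The 1,000-cell library went against 2 of these calls, with 0.65 RPKM against 0.68 and 0.74 of panH3 in a bin called higher and 0.81 against 0.58 and 0.55 in the lower one.

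Among the housekeeping lists, 2 had no bin called higher. Among genes for oxidative phosphorylation, the subunits of the respiratory chain, 37 of 45 bins were lower and 0 higher (median -1.36). The lowest start bin holds the starts of Ndufs1, a complex I subunit, Eef1b2, whose promoter is printed above, and Snora41 (chr1:63224001-63226000), with 0.15, 0.03 and 0.31 RPKM against 0.76 and 0.87 (-2.34 ± 0.32). For ribosomal proteins 10 of 14 bins were lower and 0 higher, 8 and 0 after centring, and Rplp1 stood at -1.29 ± 0.28. Of 8 bins in clustered histone genes 6 were lower and 1 higher. Zfp genes, the large zinc finger family, had 221 of 403 bins lower and 30 higher (median -0.89), with Zfp804a, a brain gene, as the highest start (2.90 ± 0.19).

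Several lists of genes used in differentiated tissues had more bins called higher than lower. Protocadherin genes, which give neurons surface identity, had 17 higher and 0 lower of 18 start-site bins and 37 and 2 of all 160. Keratin genes of skin and hair had 16 higher and 0 lower of 32. Receptors for neurotransmitters had 10 higher and 0 lower of 11 start-site bins. Of all their 342 bins 47 (13.7%) were higher and 28 (8.19%) lower (median 0.04), so that the share of higher bins was near that over all bins. The highest start was that of Grin2a, an NMDA receptor subunit, with 2.24, 2.42 and 1.76 RPKM against 0.20 and 0.26 (2.89 ± 0.19). Potassium channels had 66 higher (18.3%) and 28 lower of 361, with 8 of 12 start-site bins higher. The start of Kcnk16, printed above as a stretch without CpG, was not called (0.38, 0.42 and 0.50 RPKM against 0.55 and 0.60, difference -0.43 ± 0.23, adjusted p = 0.163). Collagen genes had 30 higher (16.8%) and 11 lower (6.15%) of 179.

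Olfactory and vomeronasal receptor genes, silent in most cells and lying in long clusters, were near nucleosome density. Olfactory receptors had 16 higher and 26 lower of 166 bins (median -0.13), and vomeronasal receptors 9 and 17 of 170 (-0.17). After centring these counts were 31 and 15, and 15 and 8, so the balance of calls turned in both families. It turned in the same way over all tested bins, to 17.6% higher and 14.8% lower. Their mean levels were 0.420 RPKM of H3K27me3 against 0.425 of panH3 in olfactory genes and 0.369 against 0.390 in vomeronasal genes. Olfr462 had the highest olfactory start, 1.40, 1.31 and 0.73 RPKM against 0.35 and 0.46 (1.53 ± 0.20).

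**Figure D4:**
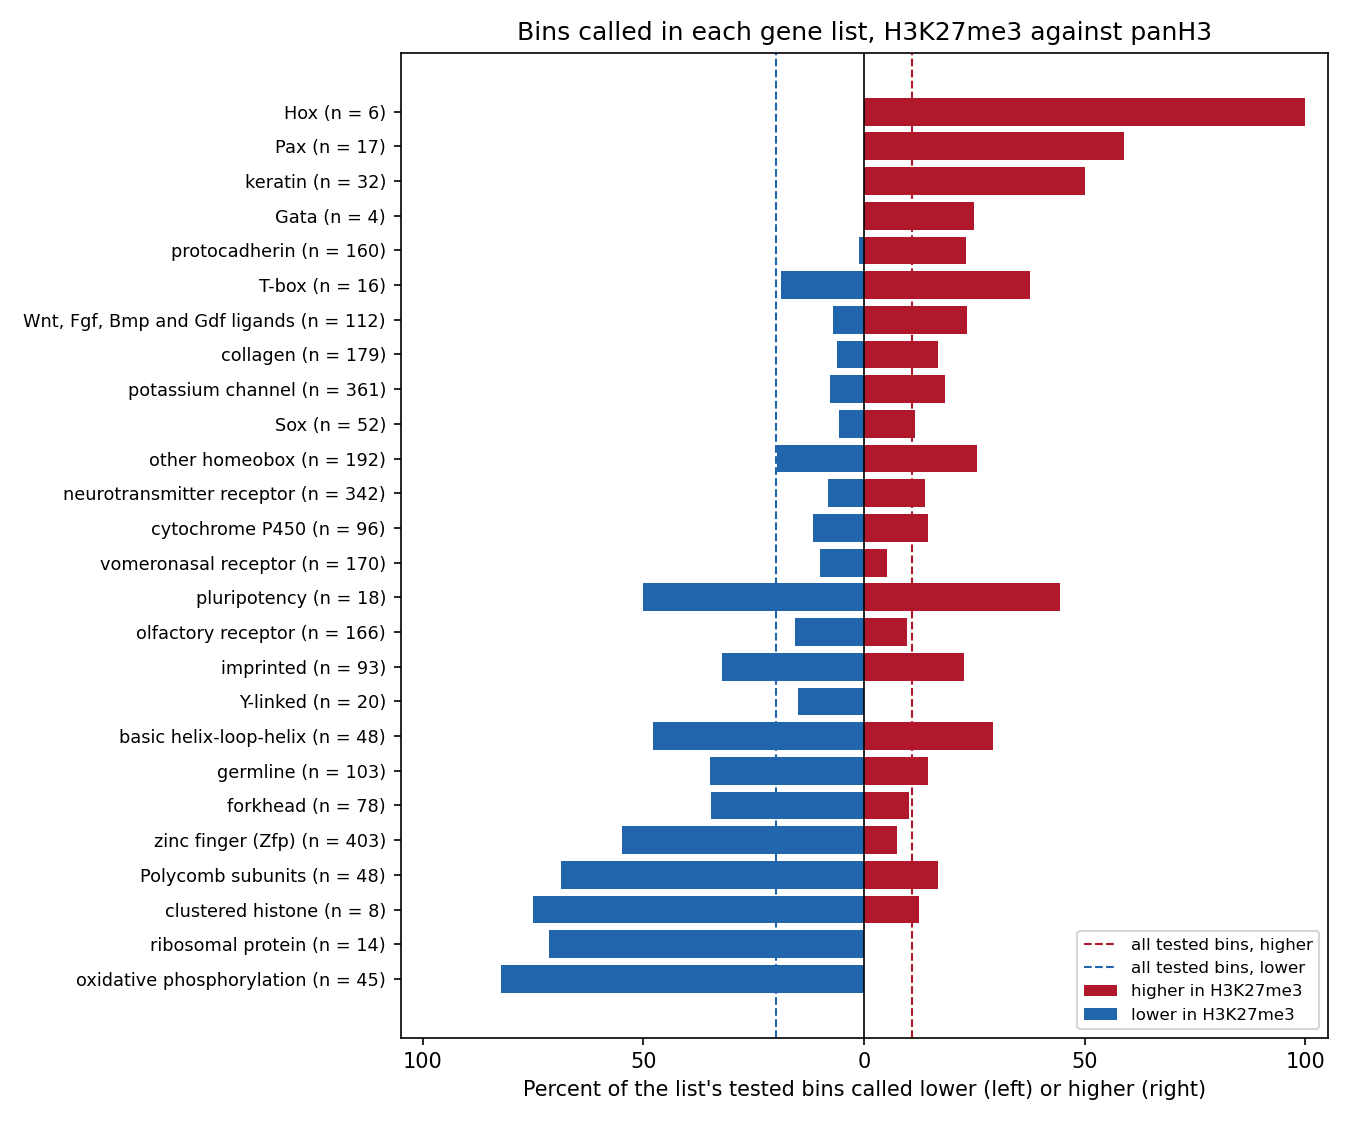
Percent of the tested bins of each gene list (y axis, with the number of bins) called higher (red, right) or lower (blue, left), on a linear axis, with dashed lines at the 10.8% and 20.0% of all tested bins. Hox and Pax genes have bars to the right alone, oxidative phosphorylation and ribosomal protein genes to the left alone. Calls after centring are not drawn. With them the balance of higher and lower turns over all tested bins, and also for olfactory receptors, vomeronasal receptors and pluripotency genes.

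Imprinted genes, expressed from 1 parental copy, were mixed, with 21 higher (22.6%) and 30 lower (32.3%) of 93 bins. Calcr, the calcitonin receptor, had the highest start (2.49, 2.55 and 1.19 RPKM against 0.49 and 0.32, 2.40 ± 0.19), and Mcts2, a translation factor gene, the lowest (-1.78 ± 0.29). Kcnq1, a potassium channel in the imprinted domain of distal chromosome 7, had a median difference of 1.40 over 10 bins, 6 higher and 2 lower. Its 3 first bins by position had 0.99 to 3.81 RPKM of H3K27me3 in the tested pair and 0.36 to 0.55 of panH3. In the 4 bins that also touch Kcnq1ot1, the long antisense RNA of that domain, H3K27me3 was 0.10 to 0.46 RPKM in the tested pair against 0.36 to 0.55 of panH3, and 2 of them were called lower (-1.16 and -1.07). The 1,000-cell library had 1.00 RPKM in the first of these, above both panH3 libraries. The last 3 bins had 1.60 to 2.78 RPKM. At the first of the Kcnq1ot1 bins H3K9me3 was 1.18, 2.32 and 2.99 RPKM at 1,000,000, 100,000 and 10,000 cells. The RNA of Kcnq1 is listed at 128.8 RPKM, and whether counting used the strand is not given in the sources used here, so sense and antisense RNA cannot be told apart.

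**Figure D5:**
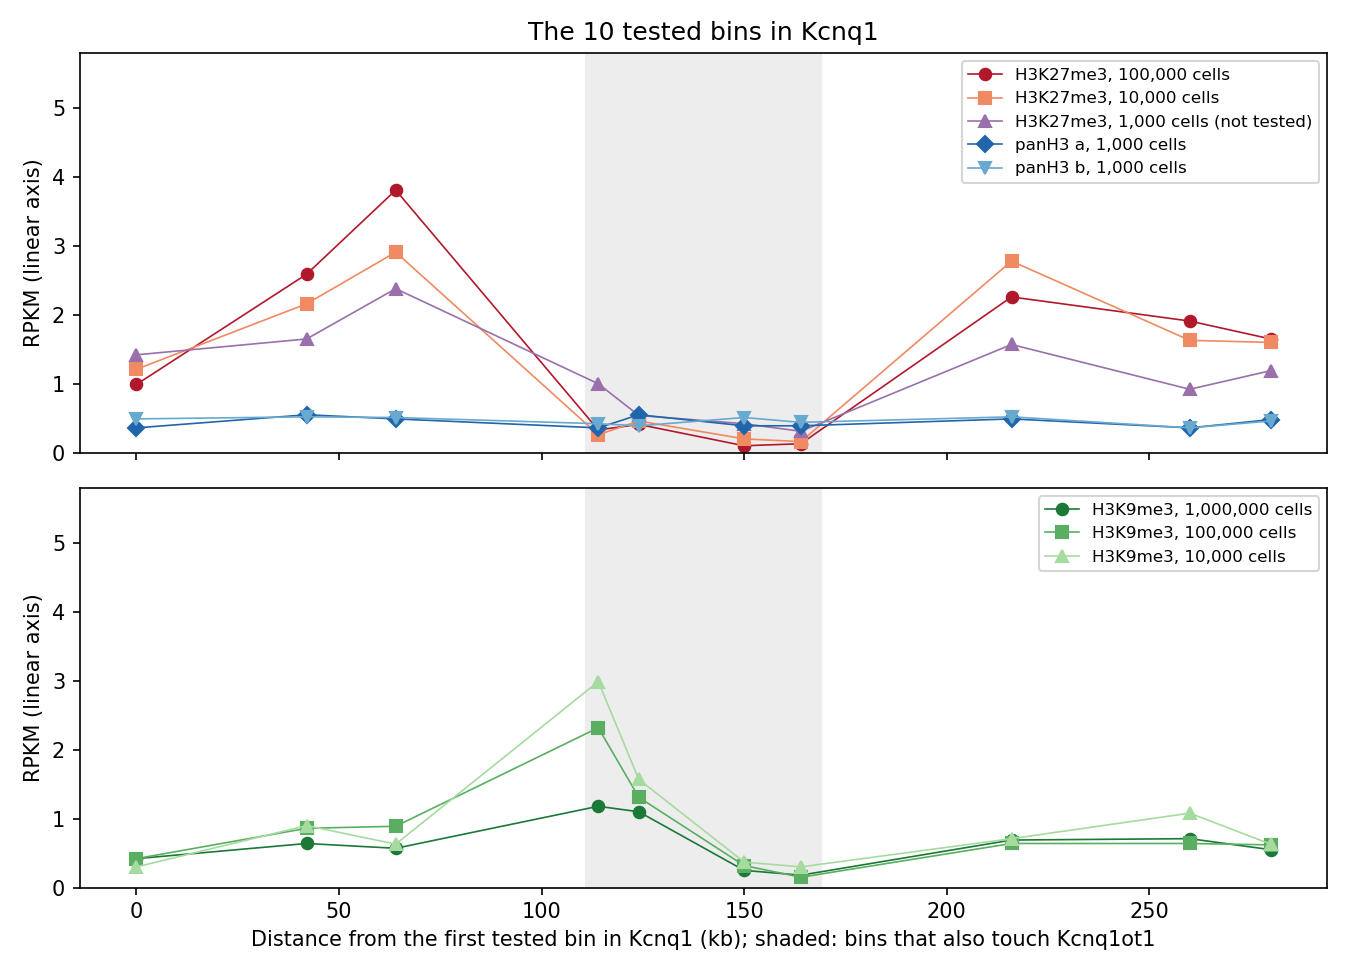
RPKM (y axis, linear) in the 10 tested bins of Kcnq1 by distance in kb from the first (x axis), for 5 libraries of H3K27me3 and panH3 (top) and 3 of H3K9me3 (bottom), with the bins that also touch Kcnq1ot1 shaded. H3K27me3 at 100,000 cells reaches 3.81 RPKM left of the shading and 0.10 within it, while panH3 stays between 0.36 and 0.55 throughout.

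Genes of the germline list, many of them silenced in most other cells, had 5 higher and 1 lower of 8 start-site bins. The list was matched by gene name, and the lower bin was at the start of Tex264 (-1.54 ± 0.29), with 11.3 RPKM of RNA. Not every member of the list was thus silent here. Of all 103 bins 15 (14.6%) were higher and 36 (35.0%) lower, against 10.8% and 20.0% of all tested bins. At Ddx4, an RNA helicase of germ cells (chr13:113442001-113444000), H3K27me3 was 3.0, 3.20 and 1.88 RPKM against 0.46 and 0.28 (2.79 ± 0.19) with 3.73 RPKM of RNA. H3K9me3 was also above panH3 there, at 1.19, 1.38 and 0.97 RPKM in 1,000,000, 100,000 and 10,000 cells. Mael, a factor of the piRNA pathway, had 1.86, 1.96 and 1.30 RPKM of H3K27me3 against 0.48 and 0.60 (1.66 ± 0.17). Its H3K9me3, from 1.31 to 1.64 RPKM, was of the same order.

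Genes could be followed over several bins, though not over their whole length, where at least 5 bins were tested. Of 2003 such genes 643 had most of their bins lower and 53 most of them higher. In 276 every bin was lower and in 3 every bin higher. The protocadherin clusters led, with Pcdhga1, Pcdhga2 and Pcdhga3 (medians 1.51 to 1.54) and Pcdha1, Pcdha2 and Pcdha3 (1.29, 10 of 11 bins higher), which share bins within each cluster and cannot be told apart in them. Bcor (1.39) followed Kcnq1. Next among genes sharing no bins with these, chosen after the values were seen, were Trp73, a p53 relative (1.15, 5 of 6 bins higher), and Lingo1, a neuronal membrane protein (1.11, 5 of 5).

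The 8 lowest medians belonged to genes with every tested bin lower. They were Tpr, a nuclear pore protein (-2.40, 5 bins), Atg7, an autophagy enzyme (-2.39, 6 bins, 1 of which is among the 48 listed at 0 in 6 libraries), Wnk1, a kinase of ion transport (-2.38), Ankrd11, a chromatin regulator (-2.37), and Helz, an RNA helicase (-2.23). Chd2, a chromatin remodeller (-2.23), Dars, an aspartyl-tRNA synthetase (-2.15), and Sptlc2, an enzyme of sphingolipid synthesis (-2.13), completed the 8. In Tpr the mean level was 0.092 and 0.066 RPKM in the tested H3K27me3 libraries, 0.168 at 1,000 cells and 0.812 and 0.782 in panH3. RNA of these genes was 7.68 to 47.7 RPKM, apart from Chd2, listed at 0.57.

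Of the 8 single lowest bins 6 lay where the H3K9me3 libraries split too. The lowest of all, in Gm15319 (chr8:19954001-19956000), had 0.03, 0.07 and 0 RPKM of H3K27me3 and 3.24 and 2.86 of panH3 (-4.40 ± 0.22), and the next, on the X chromosome 647 kb from 4932411N23Rik, 0.05, 0.07 and 0.23 against 2.63 and 3.33 (-4.26 ± 0.22). Of the 8 lowest, 2 lie in Disc1, a scaffold protein of neurons. Another Disc1 bin was also at 0 in all 3 H3K27me3 libraries and 4 further bins of the gene stood between -0.29 and 0.93. All 3 of these Disc1 bins are among the 48. H3K9me3 split by library set in Gm15319 too, with 2.43 RPKM at 1,000,000 cells against 0.00 at 100,000. With the spread taken from all 11 libraries the Gm15319 bin was not called (adjusted p = 0.108), nor was the bin 42.9 kb from C130026I21Rik (adjusted p = 0.121) or 1 of the Disc1 bins (adjusted p = 0.0693). The remaining 2 of the 8, in Nucks1, a nuclear protein of proliferating cells (-3.12 ± 0.29), and Cnot1, the scaffold of the mRNA deadenylase complex (-3.09 ± 0.28), were at 0.03 RPKM or below in the tested pair and at 0.72 to 0.90 in panH3.

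Other readouts of the same bins, which the comparison did not use, differed with the call. The panH3 libraries and the tested pair, given beside them, made the calls and are not such readouts. Over all tested bins the 1,000-cell H3K27me3 library averaged 0.426 RPKM. In the bins higher by at least 1 log2 unit the 1,000-cell H3K27me3 library had a mean of 0.919 RPKM, against 0.422 in each panH3 library and 1.37 and 1.47 in the tested pair. In the bins lower by at least 1 log2 unit it had 0.236 against 0.522 and 0.524. Of these higher bins that touch a gene 70.1% had RNA below 1 RPKM, and of the lower ones 5.57%, against 39.4% of all tested bins that touch a gene. H3K9me3 in the lower bins ranged over its 6 libraries from 0.242 to 0.338 RPKM, below its 0.4145 to 0.4245 over all tested bins. There panH3, which helped to make the calls, was above its mean of 0.434. In the higher bins H3K9me3 was 0.442 to 0.507.

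H3K4me3 at start sites (100,000 cells, the highest of the deposited start-site windows at the bin) was compared within silent genes. Its median was 1.02 RPKM (quartiles 0.54 and 2.11) at 412 starts with H3K27me3 called higher, 0.36 at 541 not called and 0.42 at 83 called lower. It reached 2 RPKM at 26.0%, 5.55% and 21.7% of them. At expressed starts the medians were 3.49, 3.91 and 4.79 RPKM in the same order. Among the genes named above, H3K4me3 was 6.08 RPKM at Wnt9a, 3.19 at Fgf3, 3.31 at Hoxd8 and 3.19 at Sox9, and 0.66 at Foxa2 and Pax1.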

How the data were processed

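Native ChIP-seq libraries of TT2 cells were compared in bins of 2 kb. The values are RPKM deposited by the authors, per the file headers. For panH3 the header names no unit, and its values, which step like single reads, were treated as RPKM. BWA, SAMtools and the mm9 build are named in the submitters' processing notes, while the counting tool and all versions were not given in the sources used here. Among its columns, 2 belong to no sample of the series and were not used.

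A pseudocount of 0.1 RPKM was added before the log2. The 93493 bins with a value in any of the 4 libraries were fitted with limma 3.58.1 (R 4.3.3, moderated variance with trend and robust options) and p-values were adjusted by Benjamini-Hochberg over all 93493 bins. In simulated data of 93493 bins with a dispersion of 0.02, each size of change was put into 50 bins and the rest were left unchanged. This fit recovered 94% of changes of 2 log2 units up and 16% of those of 2 down. It recovered 2% of those of 1 up and 0% of those of 1 down, with 0 false calls. With so few changed bins the adjustment is stricter than in the data, where far more bins were called. These shares are therefore not the recovery or error rate of the comparison itself. Genes and RNA came from the deposited RNA table. The bins named were the 12 highest and 8 lowest called, up to 3 highest and 1 lowest start-site bins of each list, and the 8 highest and 8 lowest medians among genes with at least 5 bins. Members and lists were chosen with earlier results of these data known. The list of neurotransmitter receptors was corrected after its values were seen, because its name pattern had also caught Htra serine proteases and Grina. The values of some genes that this rule names are not reported here. Alternatives covered the pseudocount, filters, scaling, the libraries used and the test. Python 3.11.15, pandas 2.3.3 and scipy 1.17.1 were used for the summaries, and matplotlib 3.10.9 for the figures.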

Additional observations from a re-analysis of the deposited data

Results flagged for a closer look

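The 1,000-cell H3K27me3 library, which the test did not use, had a mean of 0.919 RPKM over the 3798 bins at least 1 log2 unit above panH3 at 100,000 and 10,000 cells. Over all tested bins that library averaged 0.426 RPKM. The panH3 libraries, made from the same number of cells, had 0.422 RPKM in the 3798 bins. Their values helped to choose these bins, so only the 1,000-cell side of this contrast lies outside the comparison.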

How the results depend on the processing

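As deposited, 10098 bins were higher and 18684 lower, with a median of -0.12. Of these, 529 were higher at silent start sites, 803 lower at expressed start sites, 11171 lower elsewhere in expressed genes and 4172 higher outside genes within 50 kb. Leaving out 1 library at a time gave 981 to 15308 higher and 8 to 26240 lower bins, 222 to 640, 0 to 889, 4 to 12565 and 371 to 5838 bins in these places, and a median of -0.13 to -0.11. The low ends came without panH3 a or b, when the spread rests on the H3K27me3 pair alone. With panH3 averaged as 1 library they were 773, 4, 201, 0, 2 and 275, with a median of -0.13. Centring gave 16484 higher bins and turned the median to 0.08. Adding the 1,000-cell library gave 5462 higher, 11313 lower and 2362 outside genes (median -0.10), and that library alone a median of -0.06. The spread of all 11 libraries gave 6301 higher and 2691 outside genes (median -0.10). Without a filter there were 6633 higher and 12342 lower (median -0.08), and a minimum mean of 0.2 RPKM gave a median of -0.10. A change of at least 1 log2 unit left 3798 higher and 1670 outside genes. Start sites inside the bin gave 279 and 430 start-site bins, out of a smaller class of bins. By the gene of the nearest start, 37.9% of 741 bins holding a silent start were higher. Of 838 bins holding an expressed start 50.8% were lower. The median was -0.16 and -0.04 with pseudocounts of 0.02 and 1 RPKM, -0.12 with voom on recovered reads (12351 higher, 17106 lower), -0.13 without chromosomes 1, 8 and 11, and -0.12 without the 48 bins or without those that split within H3K9me3. The cause was not tested.

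The 12 highest bins were called under every alternative that kept them, and 2 of them lie on the chromosomes left out in 1 alternative. Of the 8 lowest, 6 lost their call with panH3 averaged, 3 without panH3 a, 3 without panH3 b and 3 with the spread of all 11 libraries. Of these 8 only 2 were tested without chromosomes 1, 8 and 11, 6 without the 48 bins and 2 without those that split within H3K9me3. No paired analysis was possible because the H3K27me3 libraries carry no replicate letters and no label pairs them with panH3. A median of 9.9 to 14.2 reads per bin in H3K27me3 limits what can be seen in low bins.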

Other observations

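Mean levels differed between chromosomes, in H3K27me3 and panH3 alike. On chromosomes 1, 8 and 11 together H3K27me3 averaged 0.6095 RPKM and panH3 0.616, against 0.410 and 0.413 on the other autosomes. On the X chromosome, present once in male cells, the values were 0.196 and 0.199. The ratios of H3K27me3 to panH3 were 0.989, 0.994 and 0.984 in the same order. The shares of bins called nonetheless differed, with 13.9%, 10.47% and 6.44% higher and 23.45%, 19.75% and 13.25% lower. The cause of this was not tested. Of the 78 tested bins on the Y chromosome 0 were called higher and 8 (10.3%) lower by limma, both under the 10.8% and 20.0% of all tested bins. Mean levels there were 0.103 RPKM of H3K27me3 and 0.163 of panH3.

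Cytochrome P450 genes, whose enzymes oxidise drugs and steroids, had 14 higher (14.6%) and 11 lower (11.5%) of 96 bins, against 10.8% and 20.0% of all tested bins (median -0.09, or 0.11 after centring). Cyp26b1, which breaks down retinoic acid, had the highest start, with 1.45, 1.70 and 1.11 RPKM of H3K27me3 at 100,000, 10,000 and 1,000 cells against 0.44 and 0.36 of panH3 (1.74 ± 0.19). Among 20 bins in Y-linked genes 3 (15%) were lower, below the share over all bins, and 0 higher.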
